A study of Mus musculus with 20 samples.

Results

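Transcripts of neutrophils and red blood cell precursors were examined in RNA-Seq libraries of sorted splenic T cells, where they are transcripts of other lineages. The 10 genes named as such passengers were the neutrophil genes S100a8, S100a9, Ngp, Camp, Ltf and Lcn2 and the erythroid genes Hba-a1, Hba-a2, Hbb-bs and Alas2. They were chosen on their lower level in KO than in WT libraries, so that difference is described here without a test. Of the 10 genes, 6 had a row among the 17101 genes of the normalized count table, and all 6 were neutrophil genes. The 4 erythroid members are not analysed here, and the erythroid lineage is described through 33 other genes of red cell precursors.

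The study transplanted BM and T cells of B6 donors into irradiated F1 recipients, a haploidentical allo-BMT model of acute graft-versus-host disease, and sorted donor T cells from the spleen on day +10. KO donors carried 2loxP alleles of Dnmt3a and Cre recombinase under the Cd4 promoter, which is active in T lineage cells, and WT littermates served as donors of the control groups. Donors were 6 to 12 weeks old by the sample records and 8 to 12 weeks by the paper's methods. Recipients were 8 to 12 weeks old. The 20 libraries fell into 5 groups of 4: CD4+ and CD8+ cells of either genotype, and CD4+CD8+ double-positive (DP) cells of KO, with KO animals 1, 2, 3 and 4 and WT animals 2, 3, 5 and 6. WT DP cells are not analysed here.

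Neutrophils fill their granules in waves as they mature in the marrow. Proteases such as myeloperoxidase and elastase are made first, in promyelocytes, then the secondary granule proteins lactoferrin, cathelicidin, neutrophilic granule protein and lipocalin 2, and the cytosol of later cells is rich in calprotectin, the S100a8/S100a9 heterodimer. Red cell precursors build globin, heme and a membrane skeleton anchored on band 3, and in mice the spleen is itself a site of red cell and granulocyte production, above all under stress.

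The 6 neutrophil genes lie on 3 chromosomes (RefSeq, GRCm38.p6): S100a8 at chr3:90669071-90670034 and S100a9 at chr3:90692630-90695721 are neighbours, Camp at chr9:109847377-109849456, Ngp at chr9:110419808-110423012 and Ltf at chr9:111019292-111042766 share chromosome 9, and Lcn2 lies at chr2:32384637-32387739. The 150 bases upstream of the annotated start are shown for 4 of them. Capitals mark each match, on either strand, to TTNNGNAA, a loose form of the site bound by C/EBP factors, which direct granulocyte differentiation. The 4 genes shown are those with a match in this stretch, and Camp and Lcn2, which have none there, are not shown.

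S100a8, chr3:90668921-90669070, plus strand: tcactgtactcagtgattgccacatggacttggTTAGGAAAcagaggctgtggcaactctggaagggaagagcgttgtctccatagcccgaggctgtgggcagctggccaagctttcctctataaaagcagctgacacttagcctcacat

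S100a9, chr3:90695722-90695871, minus strand: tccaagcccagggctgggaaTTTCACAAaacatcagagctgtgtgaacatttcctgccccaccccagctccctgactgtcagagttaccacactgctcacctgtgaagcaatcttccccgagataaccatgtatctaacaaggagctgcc

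Ngp, chr9:110419658-110419807, plus strand: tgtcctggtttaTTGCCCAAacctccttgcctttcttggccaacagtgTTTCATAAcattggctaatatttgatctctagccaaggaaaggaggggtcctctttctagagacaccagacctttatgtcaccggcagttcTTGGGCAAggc

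Ltf, chr9:111019142-111019291, plus strand: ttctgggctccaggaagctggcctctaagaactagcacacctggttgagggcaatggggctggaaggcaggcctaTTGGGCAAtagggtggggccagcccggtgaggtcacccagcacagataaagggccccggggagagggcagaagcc

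Over the full 250 bases before the start, TTNNGNAA was found 3 times for Ngp, 2 times each for S100a9 and Ltf, 1 time each for S100a8 and Lcn2 and 0 times for Camp. The same letters occur in 36.8% of all 32851 promoter windows of that length, so the matches are a description of the sequence and not of binding.

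The libraries held 37547651 to 46966318 reads on genes. Genes with at least 1 read numbered 13203 to 14677, except for 11783 in the DP library of KO animal 3, which stood apart. Dnmt3a was lower in every KO library (650.4 to 2007) than in every WT library (3542 to 5171). Cd4 and Cd8a followed the sorted subset, and Cd3e, a subunit of the T cell receptor complex, lay between 16885 and 29178 in all 20 libraries. Within a genotype, libraries with the same animal number deviated together from their group means, so the numbers were read as animals. Nothing in the labels says how animals of different genotype relate.

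S100a8 and S100a9, the subunits of calprotectin, were the most abundant members per base. Over the 8 WT libraries S100a9 had a normalized count of 1501 ± 504 per kb of exon and S100a8 of 1496 ± 406 (SD, n = 8), against 528 ± 142 for Ngp and 225 to 246 for Camp, Ltf and Lcn2. The ranges of S100a8 and S100a9 over these libraries overlapped, as did those of Camp, Ltf and Lcn2. The genes share the libraries, so these SDs are not the error of a difference between genes, which was not tested.

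S100a9 had normalized counts of 607, 701, 821 and 1079.8 in the CD4+ libraries of WT animals 2, 3, 5 and 6, and of 571, 745, 501 and 1268 in their CD8+ libraries. In KO animals 1, 2, 3 and 4 it had 22, 0, 893 and 164 in CD4+ cells, 68.5, 0, 659 and 149 in CD8+ cells and 52.9, 0, 2402 and 156 in DP cells. KO animals 1, 2 and 4 lay below every WT library of the same subset, and KO animal 3 lay within the WT range in CD4+ and CD8+ cells and above every WT library in DP cells.

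S100a8 had 449, 594, 781 and 697 in WT CD4+ cells and 415, 503, 441 and 811 in WT CD8+ cells. In KO animals 1, 2, 3 and 4 the values were 16.3, 0, 793 and 115 in CD4+ cells, 33.2, 0, 468 and 75.8 in CD8+ cells and 63.7, 0, 1981 and 101 in DP cells. The order of the KO animals, 3 above 4 above 1 above 2, was that of S100a9 in all 3 subsets.

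Ngp, a protein of secondary granules related to cathelicidin, had 525, 585, 709 and 745 in WT CD4+ cells and 528, 641, 317 and 857 in WT CD8+ cells. The KO animals had 16.3, 0, 1163 and 84.6 in CD4+ cells, 40.7, 0, 647 and 95.7 in CD8+ cells and 11.9, 0, 1277 and 116 in DP cells. Again KO animal 3 was high and KO animal 2 held no read in any subset.

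Camp, which encodes the antimicrobial peptide cathelicidin, had the lowest mean of the members in WT libraries. It had 83.6, 134, 147 and 159 in WT CD4+ cells and 81.1, 129, 77.3 and 267 in WT CD8+ cells. The KO animals had 1.91, 0, 299 and 22 in CD4+ cells, 2.14, 6.18, 160.4 and 10.4 in CD8+ cells and 0, 0, 650.4 and 37.4 in DP cells. KO animals 1 and 2 had 0 to 6 reads a library, too few to tell their order.

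Ltf, which encodes the iron-binding protein lactoferrin, had 544, 683, 717 and 751 in WT CD4+ cells and 575, 486, 361 and 987 in WT CD8+ cells. The KO animals had 5.74, 0, 902 and 23.1 in CD4+ cells, 5.35, 6.18, 688 and 44.5 in CD8+ cells and 1.08, 2.94, 869 and 55.6 in DP cells. Here KO animal 4 lay closer to KO animals 1 and 2 than for the calprotectin genes, with a mean over its 3 libraries of 41.1 against 638 over the WT libraries.

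Lcn2, a siderophore-binding lipocalin, had 183, 216, 226 and 236 in WT CD4+ cells and 144, 236, 151 and 286 in WT CD8+ cells. The KO animals had 11.5, 0, 219.6 and 62.6 in CD4+ cells, 10.7, 9.26, 214 and 23.7 in CD8+ cells and 23.7, 6.87, 365 and 50.8 in DP cells. It was the gene with the narrowest spread over the KO animals, and the order 3, 4, 1, 2 held in all 3 subsets.

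**Figure D1:**
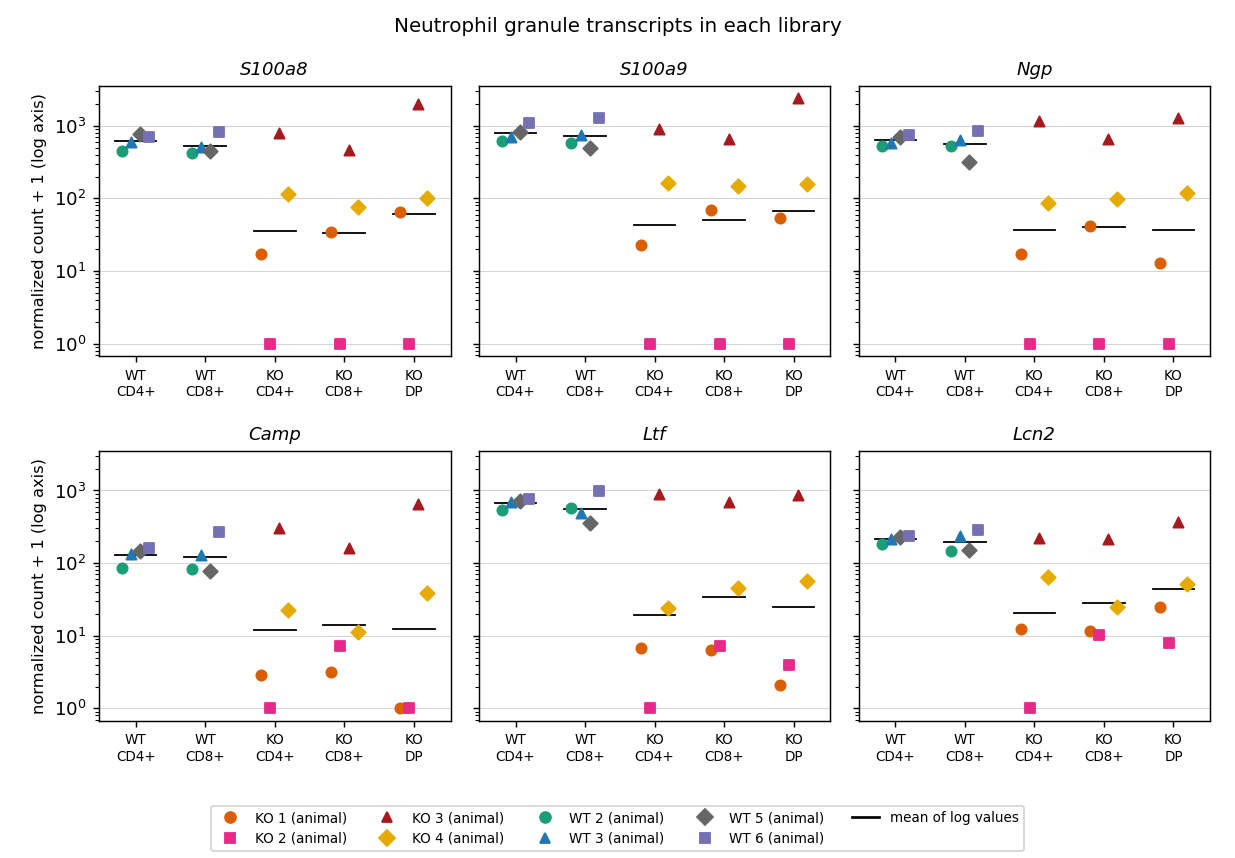
Normalized count plus 1 on a log axis for the 6 neutrophil genes in 20 libraries, with a marker for each animal and a bar at the mean of the log values of each group (n = 4). KO animal 3 sits within or above the WT range and KO animal 2 at or near the bottom in each subset, with 0 reads of S100a8, S100a9 and Ngp.

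Summed over the 6 genes, the level relative to all gene reads ran from 44.8 to 109 RPM in WT libraries. It was 96.6, 64.3 and 147 in the CD4+, CD8+ and DP cells of KO animal 3, 10.8, 9.27 and 12.0 in those of KO animal 4 and 1.65, 3.67 and 3.43 in those of KO animal 1. KO animal 2 had 0, 0.474 and 0.213, and its CD4+ library had 0 reads of the 6 genes together, which allows up to 0.0674 RPM by the limit of 3 reads. Of the 18 values of KO animal 2, 13 were 0, against 1 of 18 in KO animal 1 and 0 in KO animals 3 and 4 and in all WT animals. These limits cover counting error only. In bulk libraries, fewer neutrophils and less RNA per neutrophil cannot be told apart.

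The spread between KO animals was far wider than that between the subsets of an animal. On the log2(normalized count + 1) scale, the SD of the KO animal means was 2.50 for Lcn2, 3.48 for Camp, 3.70 for Ltf, 4.09 for S100a8, 4.17 for Ngp and 4.27 for S100a9. The median SD between the subsets of a KO animal was 0.38 for Ngp to 0.97 for Camp. Among WT animals, the SD of the animal means was 0.30 for Lcn2 to 0.56 for Camp. WT animal 6 was the highest WT animal in both subsets for 5 of the 6 genes, all but S100a8.

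The animal was also tested as a term of a limma fit with the subset as the other term, a test added after these values were seen. Within KO, 6 of 6 members passed the threshold, with limma adjusted p from 2.8e-05 for S100a8, S100a9 and Ngp to 0.00182 for Lcn2. Across all 12183 genes tested, 29.5% passed. With KO animal 3 left out, 5 of the 5 members tested passed (limma adjusted p from 1.52e-05 for S100a9 to 0.0253 for Lcn2), against 46.1% of all genes, and Camp fell below the minimum mean of 10. Within WT, 0 of 6 members passed in limma, where 0.717% of all genes did. The lowest WT value was that of S100a9, with an adjusted p of 0.0561, and 4 of the 6 had an unadjusted p under 0.05. The 6 genes were read from the same libraries and are not independent tests.

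Whether the passenger reads depended on the sorted subset was asked within each genotype, which the choice of the genes did not use. Between WT CD8+ and WT CD4+ libraries the differences were small beside those between KO animals. The log2 fold change was -0.12 for S100a9 (SE 0.24), with a 95% interval from -0.65 to 0.41, and -0.25 for Ltf (SE 0.23), with an interval from -0.75 to 0.25. Over the 6 members it ran from -0.07 to -0.25, and all 6 were on the lower side in CD8+ cells in limma, 5 of 6 by edgeR. None passed the threshold in limma (0 of 6, also 0 at an unadjusted p under 0.05, and 0 by edgeR and DESeq2), where 44.5% of all genes differed between these subsets. Without WT CD8+ replicate 6, the highest CD8+ library, Ltf at -0.52 and S100a8 at -0.45 passed in limma (adjusted p = 0.0211 and 0.0493), so that 2 of 6 were called.

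Among KO libraries the same comparisons had much wider errors. S100a9 differed by 0.26 between KO CD8+ and KO CD4+ cells (log2, SE 2.30), 0.39 between KO DP and KO CD8+ cells (SE 2.42) and 0.65 between KO DP and KO CD4+ cells (SE 2.45). With the animal number as a block, the SE fell to 0.42, 0.44 and 0.43. The blocked 95% interval then ran from -0.68 to 1.19 for CD8+ against CD4+ cells, from -0.66 to 1.44 for DP against CD8+ cells and from -0.36 to 1.66 for DP against CD4+ cells.

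No member passed the threshold in any of these 3 comparisons in limma, with or without the block (0 of 6 each, 0 at an unadjusted p under 0.05 in either fit). By edgeR 0 of 6 passed, and DESeq2, which gave an adjusted p for 3, 1 and 1 of the 6, also called 0. The direction was not settled: in CD8+ against CD4+ cells 1 of 6 was on the lower side in limma and 6 of 6 by edgeR. Without KO DP replicate 3, the library that stood apart, 0 of 6 passed in either DP comparison, and 6 and 5 of the 6 were on the lower side in DP cells against 3 and 0 with it. Of all genes, 4.22% differed between KO CD8+ and KO CD4+ cells, 0.00823% between KO DP and KO CD8+ cells and 1.95% between KO DP and KO CD4+ cells. With the block, these counts rose from 514 to 2305 genes, stayed at 1 gene and rose from 237 to 860 genes. The largest of these differences were those of Lcn2, at 1.10 in DP against CD4+ cells (blocked SE 0.63), and S100a8, at 0.85 in DP against CD8+ cells (blocked SE 0.45). The KO difference between subsets was also set against the WT one: in the genotype by subset interaction, 0 of 6 members passed in limma (0 at an unadjusted p under 0.05, 0 by edgeR, and 0 of the 4 with an adjusted p by DESeq2), against 0.0161% of all genes.

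**Figure D2:**
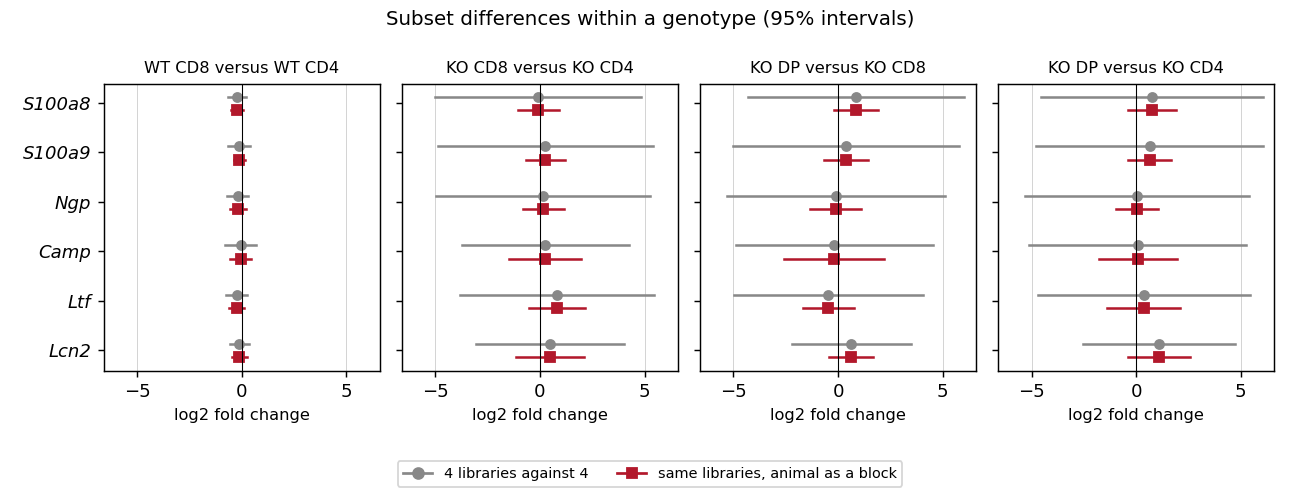
Log2 fold change between subsets of the same genotype for the 6 neutrophil genes, with 95% limma intervals, from 4 libraries against 4 (grey circles) and with the animal number as a block (red squares). The intervals all span 0. For S100a9 the blocked interval of KO CD8+ against KO CD4+ cells ran from -0.68 to 1.19.

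The proportions of the 6 transcripts were compared in the 16 libraries with at least 100 of their reads. In WT libraries, S100a9 took 24.0% to 29.4% of these reads, Ltf 17.7% to 24.8%, Ngp 17.2% to 23.4%, S100a8 17.9% to 23.9%, Lcn2 6.22% to 8.62% and Camp 3.49% to 5.96%. KO animal 4 had 4.90% to 11.2% for Ltf and 30.2% to 37.3% for S100a9, and KO animal 1 had 0.704% and 3.33% for Ltf, from 1 and 5 reads of this gene. Ltf shares of KO animals 1 and 4 lay below all WT libraries. KO animal 3 had Ltf at 21.1% and 24.2% in CD4+ and CD8+ cells, within the WT range, and at 11.5% in the DP library that stood apart.

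As a ratio of reads, Ltf to S100a9 was 0.652 to 1.01 in WT libraries, 0.362 to 1.04 in KO animal 3, 0.141 to 0.356 in KO animal 4 and 0.0204 to 0.0781 in 2 libraries of KO animal 1. S100a8 to S100a9 was 0.640 to 0.951 in WT libraries and 0.484 to 1.20 in KO libraries. For the calprotectin pair, KO libraries lay on both sides of the WT range, and for Ltf those of KO animals 1 and 4 lay below it. These ratios were picked after the values were seen and were not tested.

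**Figure D3:**
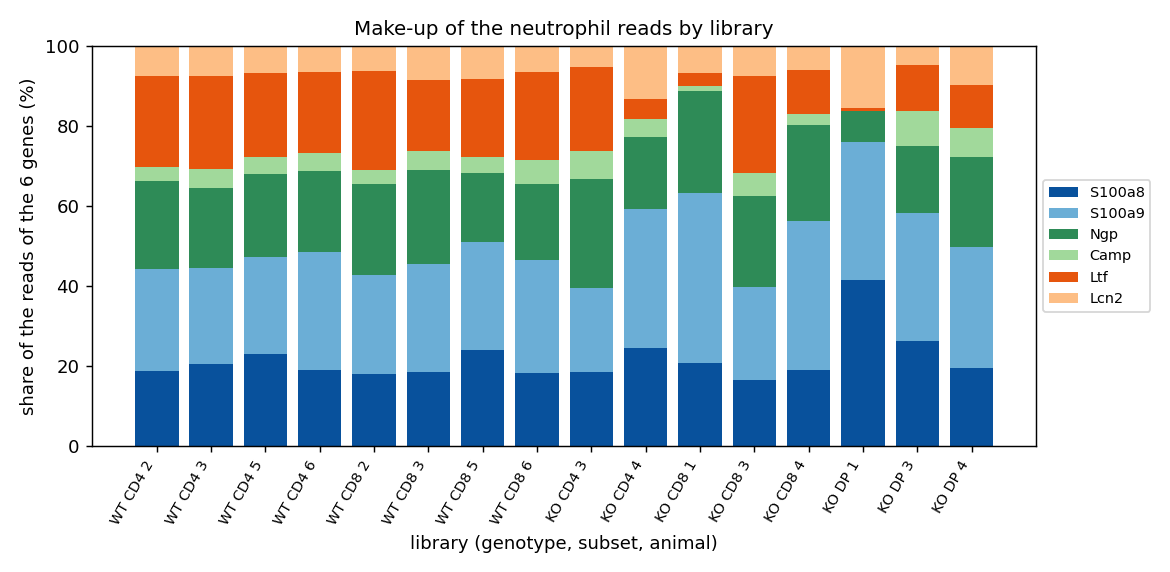
Share, in percent, of the reads of the 6 neutrophil genes taken by each gene in the 16 libraries with at least 100 such reads, labelled by genotype, subset and animal. The WT bars look alike, with Ltf at 17.7% to 24.8%, and the bars of KO animals 1 and 4 have a thinner Ltf segment (0.704% to 11.2%).

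Between KO and WT CD4+ cells the log2 fold changes, which chose the genes and so carry no test, were -4.12 for S100a8, -4.19 for S100a9, -4.13 for Ngp, -3.43 for Camp, -5.10 for Ltf and -3.40 for Lcn2. In CD8+ cells they were -3.98, -3.82, -3.78, -3.10, -4.02 and -2.80 in the same order. These values depend on the pseudocount of 1, since KO animal 2 was at or near 0, and in CD4+ cells edgeR gave -0.67 for Camp and -1.51 for Ltf. Of the 36 values of KO animals 1, 2 and 4 in CD4+ and CD8+ cells, 36 lay below every WT library of the subset, and of the 12 values of KO animal 3, 0 did. Without KO animals 1 and 2, S100a9 stood at -1.03 in CD4+ and -1.20 in CD8+ cells. Without the library of KO animal 3 it stood at -5.65 and -5.05. Of all genes, 9.77% were lower and 8.59% higher in KO CD4+ cells, and 12.5% were lower and 12.6% higher in KO CD8+ cells.

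The other neutrophil genes numbered 44 on 3 lists, of primary granules, secondary granules and mature cells, and 43 had a row. In CD4+ cells, 0 were higher and 6 lower in KO of 32 tested, with a median log2 fold change of -1.66 against -0.05 over all genes, and in CD8+ cells 0 were higher and 2 lower of 30 tested, with a median of -1.64. This is the contrast that chose the members, so nothing is read from these counts. Without the library of KO animal 3, 16 and 13 of these genes passed, without WT CD4+ replicate 6 the count in CD4+ cells was 1, and without WT CD8+ replicate 2 that in CD8+ cells was 0.

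Mpo, the myeloperoxidase of primary granules, did not follow the calprotectin genes in KO animal 4. It had 67.0, 100.4 and 50.8 in the CD4+, CD8+ and DP cells of that animal and 68.8, 81.9 and 80.7 in those of KO animal 3, against 54.2 to 277 in WT libraries. KO animal 1 had 7.55 to 10.7 and KO animal 2 had 5.89, 0 and 0. As a ratio of reads, Mpo to S100a9 was 0.325 to 0.675 in KO animal 4, 0.0336 to 0.124 in KO animal 3 and 0.0502 to 0.395 in WT libraries. In CD4+ and CD8+ cells of KO animal 4, Mpo lay within the WT range of the subset, where S100a9 and Ltf lay below it.

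Elane, neutrophil elastase, had 24.2, 14.2 and 22.1 in KO animal 4, 92.6, 31.4 and 74.5 in KO animal 3 and 20.2 to 89.0 in WT libraries. Prtn3, proteinase 3, had 37.3, 13.3 and 14.4 in KO animal 4 and 63.0, 79.6 and 89.4 in KO animal 3, against 20.1 to 69.5 in WT libraries. In KO animal 4 both genes lay within the WT range in CD4+ cells and below it in CD8+ cells, and both were at 0 in all 3 libraries of KO animal 2. Of the 5 primary granule genes tested within KO, 4 differed between animals in limma, against 29.5% of all genes, the animal term being the one added after the values were seen. With KO animal 3 left out, only 3 of these genes reached the minimum mean, and 2 of the 3 differed, against 46.1% of all genes.

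Chil3, a chitinase-like protein of secondary granules and of macrophages, had 1813, 1415 and 1776 in KO animal 3, above the 293 to 1131 of the WT libraries. It had 212, 162 and 198 in KO animal 4, 16.3, 58.9 and 8.63 in KO animal 1 and 0 in all 3 libraries of KO animal 2. Lyz2, the lysozyme of granulocytes and macrophages, had 679.9, 716 and 1343 in KO animal 3 and 19.6 to 95.9 in the other KO animals, against 393 to 1017 in WT libraries. Of the 10 secondary granule genes tested, 8 differed between KO animals in limma, against 29.5% of all genes. Of the 12 genes of mature neutrophils, 5 did, which is not far from that share. With KO animal 3 left out, 5 of 7 and 5 of 10 did, against 46.1% of all genes. The genes lost reached the minimum mean of 10 only through that animal, so a difference between animals was built in for them.

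A few genes of these lists were expressed at a high level in every library, KO animal 2 included. Pglyrp1, a peptidoglycan recognition protein, ran from 4455 to 12520, Serpinb1a, an inhibitor of neutrophil proteases, from 444 to 2036, and Itgam, the CD11b integrin, from 150.4 to 4216. Some genes of these lists differed between T cell subsets, as many genes did. In WT cells Mmp9, the gelatinase of tertiary granules, was lower in CD8+ than in CD4+ cells (log2 fold change -2.96, SE 0.20, limma adjusted p = 8.24e-08), and Itgam was higher (2.42, SE 0.31, limma adjusted p = 2.97e-05). Il1r2, a decoy receptor of interleukin 1, fell by 2.35 on the log2 scale in WT CD8+ cells. Of 32 other neutrophil genes tested there, 3 were higher and 7 lower in CD8+ cells, a smaller share than the 44.5% of all genes called there.

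Between KO CD8+ and KO CD4+ cells, 1 of 27 other neutrophil genes was higher, Itgam (2.34, SE 0.41), and 2 were lower, Padi4 (-5.46, SE 0.75) and Mmp25 (-3.77, SE 0.83), at limma adjusted p of 0.014, 0.00513 and 0.035. Padi4, a histone citrullinating enzyme, had 53.0 to 102 in KO CD4+ cells and 0 to 4.49 in KO CD8+ cells. Between DP cells and either other KO subset, 0 of the other neutrophil genes passed in limma, with 1 of 25 (against CD8+) and 6 of 28 (against CD4+) at an unadjusted p under 0.05. These fits had no block, so their error takes in the spread between animals.

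The erythroid genes were split into 15 genes of globin and heme synthesis, of which 11 had a row, and 23 of the membrane, red cell enzymes and erythroid factors, of which 22 had one. Slc4a1, which encodes band 3, had 498, 882, 2612 and 777 in the CD4+ cells of WT animals 2, 3, 5 and 6, and 401, 524, 1689 and 539 in their CD8+ cells. WT animal 5 was the highest in both subsets by more than the range of the other 3. In KO animals 1, 2, 3 and 4 it had 76.5, 16.7, 902 and 401 in CD4+ cells, 83.5, 7.21, 822 and 225 in CD8+ cells and 53.9, 2.94, 694 and 178 in DP cells. The order of KO animals was again 3, 4, 1, 2, and KO animal 3 lay within the WT range in CD4+ and CD8+ cells.

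Car1, a carbonic anhydrase of the red cell lineage, gave another order. It had 277, 1277, 568 and 279 in WT CD4+ cells and 228, 916, 394 and 216 in WT CD8+ cells, highest in WT animal 3. In KO cells it was highest in animal 4 in CD4+ (337) and CD8+ cells (231) and in animal 3 in DP cells (254), and KO animal 2 had 15.7, 0 and 10.8. The ratio of Slc4a1 to Car1 reads was 0.691 and 0.572 in WT animal 3, 4.60 and 4.28 in WT animal 5 and 2.73 to 7.12 in KO animal 3. Klf1, an erythroid transcription factor, had 258 and 178 in WT animal 3 and 203 and 142 in WT animal 5, with 56.7 to 66.2 in WT animals 2 and 6.

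Of the 22 membrane, enzyme and factor genes, 16 were highest in WT animal 5 in both subsets, 4 were highest in WT animal 3 in both subsets, and 14 were lowest in WT animal 2 in both. Tested with the same animal term in limma, 14 of the 22 differed between WT animals, where 0.717% of all genes and 0 of the 6 neutrophil members did. Slc4a1 (limma adjusted p = 2.97e-06), Car1 (9.85e-06) and Car2 (1.18e-06) were the clearest. Of the 11 globin and heme genes, 0 differed between WT animals in limma, and 6 had an unadjusted p under 0.05. The erythroid genes named here outside the 3 with the highest mean of each list were picked after their values were seen.

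Within KO, 16 of 21 membrane, enzyme and factor genes differed between animals in limma, where 29.5% of all genes did, and the 3 of 11 globin and heme genes that differed are near that share. With KO animal 3 left out, 14 of 19 and 6 of 11 differed, against 46.1% of all genes. Of the 22, 16 were highest in KO animal 3 and 13 lowest in KO animal 2 in all 3 subsets. In CD4+ cells, KO animal 2 lay below every WT library for 21 of the 22, KO animal 1 for 20, KO animal 4 for 13 and KO animal 3 for 4. Heme enzymes and iron carriers, which T cells also use, varied less over the libraries: Tfrc, the transferrin receptor, ran from 2458 to 5686, Alad from 1870.1 to 4417 and Cpox from 1476 to 3004 over the 20 libraries. Prdx2 and Bpgm, enzymes abundant in red cells, ran from 5778 to 16244 and from 1094 to 2516, with the highest Prdx2 value in the DP library of KO animal 3.

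Against WT, 0 of the 33 erythroid genes were higher and 10 lower in KO CD4+ cells (median log2 fold change -1.73), and 2 were higher and 7 lower in KO CD8+ cells (median -1.56, against -0.04 over all genes). Of all genes, 9.77% were lower and 8.59% higher in CD4+ cells, and 12.5% and 12.6% in CD8+ cells. The same contrast chose the members, so nothing is read from these counts. Without the library of KO animal 3, 20 and 19 passed, without WT CD4+ replicate 5 the count in CD4+ cells was 2, and without KO CD8+ replicate 2 that in CD8+ cells was 3. Between WT CD8+ and WT CD4+ cells, 1 was higher and 4 were lower of 33 tested, against 44.5% of all genes called. This fit had no animal block. By direction, 27 of the 33 were on the lower side in CD8+ cells and 6 on the higher (median log2 fold change -0.33). A sum was also taken over 20 membrane, enzyme and factor genes, all but Prdx2 and Bpgm. WT animals 2, 3, 5 and 6 had 3148, 7807, 10904 and 4033 in CD4+ cells and 2406, 5157, 7405 and 2835 in CD8+ cells, lower in each animal. That difference was not tested. Within KO, 0 of 32 passed in limma without the block between any of the subsets, with 2, 0 and 3 at an unadjusted p under 0.05 for CD8+ against CD4+, DP against CD8+ and DP against CD4+ cells. The error of these fits takes in the spread between animals, so they do not show that the subsets were alike.

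**Figure D4:**
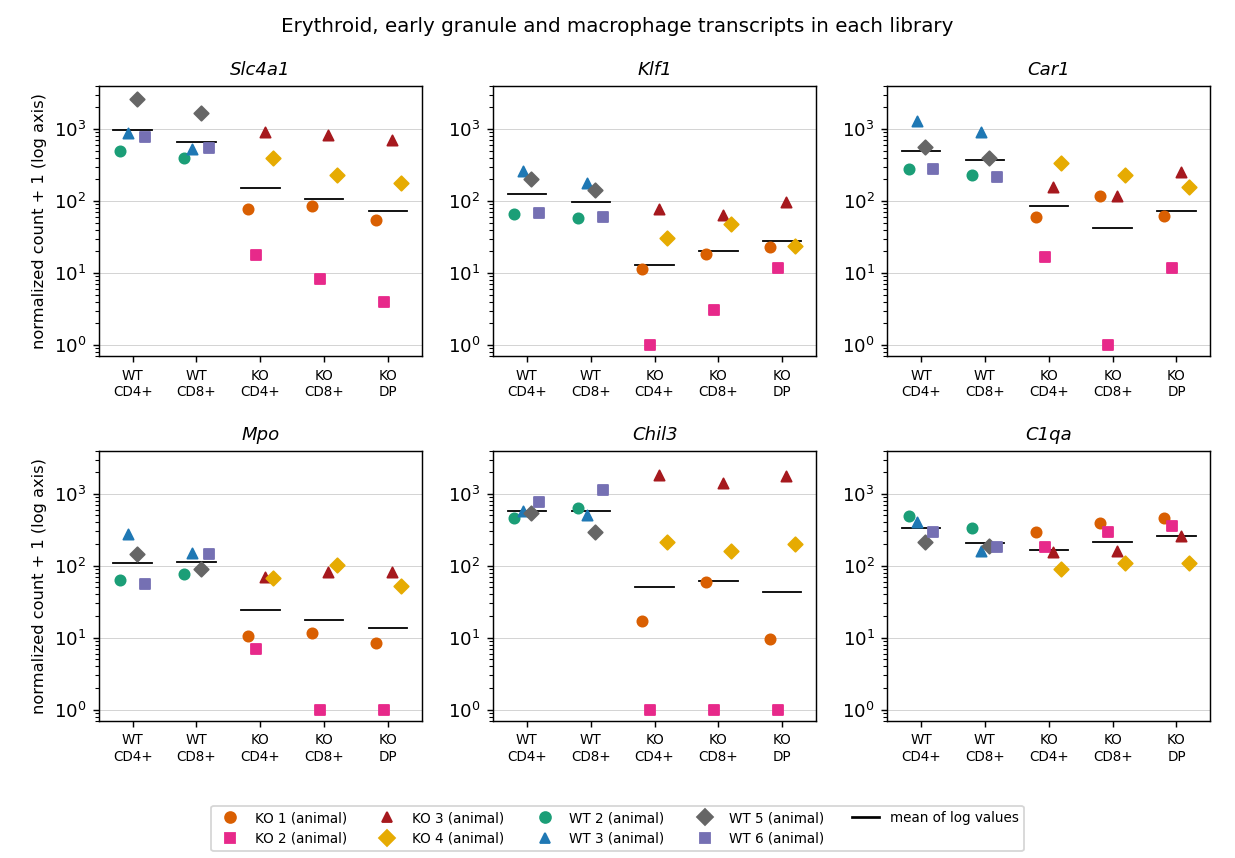
Normalized count plus 1 on a log axis for Slc4a1, Klf1 and Car1 (erythroid), Mpo and Chil3 (granulocyte) and C1qa (macrophage) in 20 libraries, with a marker for each animal and a bar at the mean of the log values of each group (n = 4). WT animal 5 is the highest WT animal for Slc4a1 and WT animal 3 for Klf1 and Car1, and KO animals 1 and 2 are higher than KO animal 4 for C1qa.

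The genes with the pattern most like S100a9 were sought among 12410 genes with a mean of at least 10, by Pearson r of log2(normalized count + 1) over 20 libraries after each group's mean was subtracted. The libraries of an animal share its deviation, so r rests on 8 animals and is given with no test. The first 4 genes were the neutrophil genes S100a8 (r = 0.996), Ngp (0.988), Chil3 (0.982) and Prtn3 (0.976). Next came Traf1, Zfp78, Itm2c, Wls, Cd82 and Tmem38b (0.951 to 0.962), which are on none of the lists. In the 8 WT libraries alone, r with S100a9 was 0.894 for S100a8, 0.897 for Ngp, 0.865 for Chil3 and 0.682 for Prtn3. Of the genes on no list it was 0.574 for Traf1, 0.464 for Zfp78, 0.0719 for Cd82, -0.14 for Wls, -0.26 for Itm2c and -0.38 for Tmem38b. The members Lcn2, Ltf and Camp had r of 0.902, 0.839 and 0.818 and ranked 52, 204 and 269. Some genes of the T cell list ranked alike, with r of 0.903 for Cd5 (rank 51) and 0.819 for Cd3g (rank 267). Others of that list did not, down to -0.12 for Cd28.

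For Slc4a1, used in place of Hbb-bs, the most alike included Apol11b, Rhag, Cd82, Apol10a, Il21, Cldn13, Epb4.2, S100a8 and Cd200, with r from 0.954 to 0.972. Rhag and Epb4.2 (now Epb42) encode parts of the red cell membrane. In the 8 WT libraries, r with Slc4a1 was 0.985 for Apol11b and 0.933 for Epb4.2, and 0.269 for S100a8. Over all 20 libraries, r between S100a9 and Slc4a1 was 0.946. S100a9 and Slc4a1 thus had the same order over the KO animals and different orders over the WT animals.

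**Figure D5:**
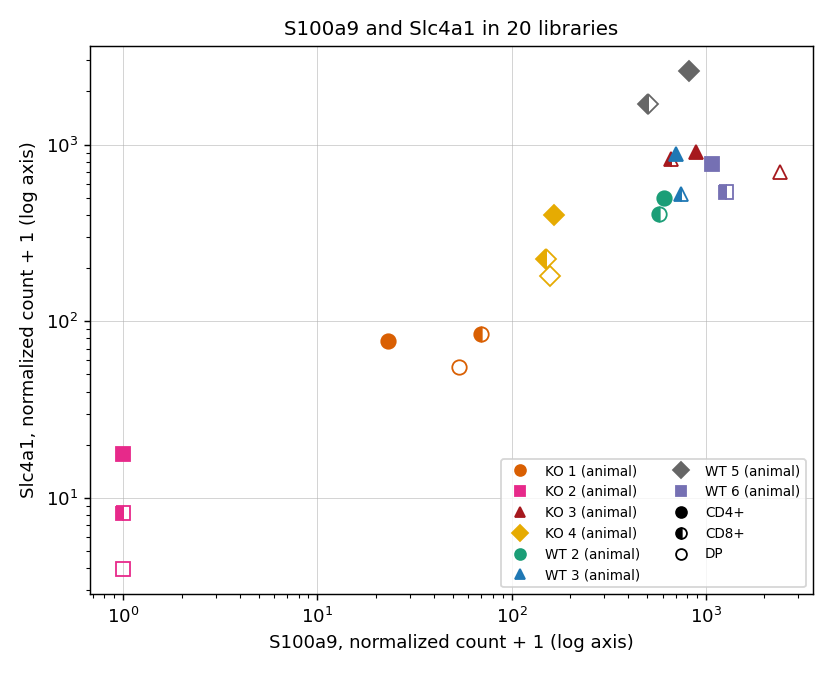
Normalized count plus 1 of Slc4a1 against that of S100a9 on log axes in 20 libraries, with marker and colour for the animal and fill for the subset. The libraries of an animal lie together, KO animals fall in the order 2, 1, 4, 3 on both axes, and WT animal 5 stands above the other WT animals on the Slc4a1 axis.

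Markers of other cells were read against the 29.5% of all genes that differed between KO animals. Of 16 monocyte and macrophage genes, 10 were highest in KO animal 1 in all 3 subsets and 0 in KO animal 3, and 12 of 16 differed between KO animals in limma. C1qa, a complement subunit made by macrophages, ran over KO animals 1, 2, 3 and 4 as 298, 183, 154 and 89.0 in the CD4+ subset, 389, 289, 162 and 109.9 in the CD8+ subset and 465, 354, 259 and 108 in the DP subset, with 161 to 485 in WT libraries. Spic, a factor of red pulp macrophages, had 111 to 189.5 in KO animals 1 and 2, 17.2 to 47.2 in KO animals 3 and 4 and 97.1 to 209 in WT libraries. KO animals 1 and 2, the lowest for neutrophil and erythroid genes, were thus the highest KO animals for C1qa and Spic. Among WT animals, 11 of the 16 genes were highest in animal 2 in both subsets, and 2 of 16 differed between animals in limma. The summed level of the list was 18934 to 27569 in CD4+ libraries of KO and 16760 to 20280 in those of WT. In CD8+ libraries it was 26082 to 44219 and 23869 to 31897, and in DP libraries 28652 to 34075. Most of this level was Ly6c2 and Ccr2, which activated T cells also express. Gene by gene, 13 of 16 were on the lower side in KO CD4+ cells and 3 on the higher (median log2 fold change -0.86). There limma called 5 lower and 1 higher. In KO CD8+ cells, 11 were on the lower and 5 on the higher side (median -0.34), and limma called 0 lower and 1 higher. KO animals 1, 2, 3 and 4 lay below every WT CD4+ library for 4, 11, 14 and 14 of the 16. Nothing is read from these counts, since this contrast chose the members.

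Summed over the T cell list of 12 genes, the normalized count ran from 265423 to 426686 in all libraries, highest in the DP library of KO animal 3. Of those genes, 5 of 12 differed between KO animals in limma, not far from the share of all genes, and 0 between WT animals. With KO animal 3 left out, 9 of the 12 differed between KO animals, against 46.1% of all genes. Platelet genes were low, summing to 38.3 to 267 in KO and 255 to 475 in WT libraries. Of these, 2 of 4 tested differed between KO animals, and 1 of 3 with KO animal 3 left out. Pf4, platelet factor 4, was at 0 in all 3 libraries of KO animal 2 and at 16.2, 17.9 and 88.1 in KO animal 3. B cell genes differed between KO animals for 1 of 4 tested, plasma cell genes for 2 of 5 and genes of eosinophils, basophils and mast cells for 0 of 2.

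Dendritic cell genes differed between KO animals for 6 of 8 tested, and for 5 of 7 with KO animal 3 left out. In limma they were also lower in KO than in WT for 8 of 9 tested in CD4+ cells (median log2 fold change -1.74). In CD8+ cells 7 of 9 were lower (median -1.61), where 9.77% and 12.5% of all genes were lower in CD4+ and CD8+ cells. The same contrast chose the members, so nothing is read from these counts. KO animal 3, which was not low for the neutrophil members, lay below every WT library for 8 of these 9 genes in CD4+ cells and 9 of 9 in CD8+ cells. The summed level of B cell genes was 1692 to 2227 in CD4+ libraries of KO against 1344 to 1759 in those of WT. In CD8+ libraries it was 1752 to 2823 against 459 to 614. Over the 20 libraries most of this sum was Cd79b and Cd22 (means of 955 and 701). Of the 4 B cell genes tested, 2 were on the higher and 2 on the lower side in KO CD4+ cells, and 4 on the higher side in KO CD8+ cells. Cd79b, a chain of the B cell receptor, ran from 40.1 to 2245 over the 20 libraries, and Ms4a1, which marks B cells, was at 0 in most libraries and at up to 4.39. Whether dendritic or B cells had a part in the neutrophil and erythroid reads was not tested.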

How the data were processed

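RNA-Seq was analysed in 20 libraries of sorted donor T cells. Per the labels and methods, the authors aligned reads to mm10 with STAR (2.7.2b in the submitters' processing notes), counted them on UCSC genes with summarizeOverlaps and scaled the result with DESeq2. These normalized counts, a scaled signal, are what was deposited. Dividing each column by its step gave whole reads for 100% of values (relative tolerance 1e-06), and edgeR 4.0.16 and DESeq2 1.42.0 were run on those reads as alternatives. Columns were mapped to samples by name, and 0 were left out.

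Genes with a mean of at least 10 in the libraries compared were tested on log2(normalized count + 1) with limma 3.58.1 (R 4.3.3) and Benjamini-Hochberg adjustment at 0.05, each contrast on its own libraries. Scripts were tested on simulated data. Within a genotype, numbers were taken as animals: libraries with the same number correlated at 0.376 to 0.707 in KO and 0.224 to 0.311 in WT in their deviations from group means, and those with different numbers at -0.51 to 0.17 and -0.18 to 0.0175. The p-values of the fits without a block measure the spread between the libraries of a group. For the animal term and the blocked fits within a genotype, the error is the spread between the subsets of an animal. In the animal term, the libraries of an animal thus stand as its replicates.

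Members and gene lists were chosen with earlier results of these data known. Genes were named if they were members, among the 3 with the highest mean on a list, called within a genotype on a neutrophil or erythroid list, among the 10 most alike to S100a9 or Slc4a1, or the sorting and targeted genes. The remaining named genes, among them Car1, Klf1, Lyz2, C1qa, Spic, Pf4, Cd3e and Ms4a1, were picked after their values were seen. Some genes that meet the rule are not reported here. Slc4a1 replaced Hbb-bs as a reference for the same reason. Alternatives were a pseudocount of 10, no filter, scaling to the 75th percentile, edgeR, DESeq2, a replicate block, and fits that left out 1 library at a time.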

Additional observations from a re-analysis of the deposited data

Results flagged for a closer look

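In 31 of 85 groups of 4 libraries examined (36.5%), the highest library stood apart from the other 3 by Dixon's criterion on normalized counts. The criterion's rate of about 1 in 20 groups holds for normally distributed values. These counts were not log-transformed, and some of the genes were picked after their values were seen. The share is thus a description and is not set against that rate. Of the 31, 29 were KO groups, each with animal 3 as the highest library, and 2 were WT CD8+ groups with animal 5 as the highest. Genes of one library are not independent of each other, and the cause was not tested.

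In KO CD4+ cells, animal 3 stood apart with 793 normalized counts for S100a8 (the next highest library had 115), 1163 for Ngp (84.6), 299 for Camp (22) and 902 for Ltf (23.1). The secondary granule and lysozyme genes Chil3 and Lyz2 had 1813 (212) and 679.9 (95.5), the erythroid gene Tmcc2 had 212 (37.3), and the sum of the 6 neutrophil members was 4269 (471).

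In KO CD8+ cells, animal 3 had 468 for S100a8 (75.8), 647 for Ngp (95.7), 160.4 for Camp (10.4), 688 for Ltf (44.5) and 214 for Lcn2 (23.7). It also had 1415 for Chil3 (162), 716 for Lyz2 (91.9) and 253 for Tmcc2 (22.5), and the sum of the members was 2837 (399).

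In KO DP cells, animal 3 had 1981 for S100a8 (101), 2402 for S100a9 (156), 1277 for Ngp (116), 650.4 for Camp (37.4), 869 for Ltf (55.6) and 365 for Lcn2 (50.8). Chil3 had 1776 (198), Lyz2 1343 (95.9), and the sum of the members was 7544 (517). The erythroid genes Car2, Klf1 and Tmcc2 had 1066 (196), 96.8 (23.0) and 285 (25.9).

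In WT CD8+ cells, animal 5 had 1689 normalized counts for Slc4a1 (539 in the next highest library) and 547 for Tmcc2 (152). No neutrophil member stood apart in any WT group.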

How the results depend on the processing

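No member was called in the main fit within a genotype or for the interaction, so no called member value there could turn direction. Directions of members not called did turn: for KO CD8+ against CD4+ cells, 1 of 6 was lower in limma and 6 of 6 by edgeR. Of the member values under the settings listed in the methods, 626 kept their call or stayed within the spread, 8 moved and 2 became called, and under those chosen after seeing the data 22 stayed and 6 moved. This tally takes in the KO against WT values, which carry no test, so a change of call there is not counted in it. Within a genotype, the values that became called were S100a8 and Ltf without WT CD8+ replicate 6. With the animal number as a replicate block, which is a pairing within a genotype, the count of genes past the threshold went from 514 to 2305 for KO CD8+ against CD4+ cells, from 237 to 860 for DP against CD4+ cells and from 2 to 173 for the interaction. Between KO and WT, numbers 2 and 3 share only a number (r of their deviations 0.0268 to 0.167). There the count with the block was 26 genes in CD4+ cells (2274 without it) and 89 in CD8+ cells (3118), 0 and 0 other neutrophil genes (6 and 2), and 1 and 0 other erythroid genes (10 and 9). DESeq2 called 956, 3, 728 and 21 genes for CD8+ against CD4+, DP against CD8+ (1 in limma), DP against CD4+ and the interaction. By edgeR the interaction had 1 gene, other erythroid genes in CD4+ cells 6 and other neutrophil genes in CD8+ cells 1. Without the filter on low counts, the interaction had 7 genes and other neutrophil genes in CD8+ cells 4. Other settings were chosen after seeing the data: without replicate 3 in both groups, 122 and 93 genes passed for CD8+ and DP against CD4+ cells, and without KO replicates 1 and 2, 6 other erythroid genes passed in CD4+ cells. With each library left out in turn, counts ran from 4985 to 5630 for WT CD8+ against CD4+, from 233 to 486 for KO CD8+ against CD4+, from 1 to 1 for DP against CD8+, from 84 (without KO CD4+ replicate 3) to 279 for DP against CD4+ and from 0 to 5 for the interaction. For KO against WT they ran from 628 (without WT CD4+ replicate 6) to 2963 in CD4+ and from 1633 (without WT CD8+ replicate 6) to 4092 in CD8+ cells. Other neutrophil genes ran from 1 to 16 and from 0 to 13, and other erythroid genes from 2 to 20 and from 3 to 19, the highest value each time without KO replicate 3. Where a cause is not shown by the setting itself, it was not tested. Depth limits the values of KO animals 1 and 2, many of which rest on 0 to 3 reads.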
